A study of Mus musculus with 8 samples.

Results

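The MHC class I heavy chains and their light chain B2m are represented here by 9 genes, H2-K1, H2-D1, H2-Q4, H2-Q6, H2-Q7, H2-T22, H2-T23, H2-M3 and B2m, chosen by name and matched through their Ensembl identifiers to rows of a raw count table. All 9 had a row, out of 42687 genes in the table. RNA was measured in a mouse pancreatic tumour cell clone of low immunogenicity that came from the KPCY model, in which Pdx1-Cre acts in the pancreas to switch on mutant tumour genes, among them Trp53 (R172H), together with a YFP reporter. The labels give the cells' genotype as WT, and all libraries came from this clone, so none of the comparisons extends beyond it. The cells were given extracellular vesicles (EVs) of mouse T cells after overnight incubation, were reseeded the following day, and went through that cycle 8 times. There were 4 groups of 2 libraries. ATEV cells, read here as given EVs of activated T cells, received 15 µg per mL. NTEV cells received 30 µg per mL of EVs from non-activated T cells, and the labels relate these amounts to 5 µg per mL of EV-DNA. DNase-treated ATEV cells received 15 µg per mL of ATEVs that had first been incubated with Baseline-ZERO DNase. PBS cells received buffer.

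MHC class I molecules display short peptides of the cell's own proteins to CD8 T cells. Each is a heavy chain paired with the light chain beta-2-microglobulin, without which most heavy chains do not reach the surface. H2-K1 and H2-D1 encode the classical, highly polymorphic heavy chains of the mouse. The Q, T and M heavy chains are nonclassical and less variable, and several of them present particular ligands to particular lymphocytes. Interferons and the transactivator NLRC5 are known to raise transcription of these genes, and tumour cells often carry low levels of them.

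The libraries held between 34385326 and 52451398 counts, and 15197 genes passed the filter on low counts. The labelled cell type was checked with 10 epithelial markers. None was at 0 counts in any library, and 8 to 10 of them reached 1 CPM (counts scaled to the library's size). Their summed level was 8819 to 10441 CPM in ATEV libraries and 10531 to 11780 in NTEV libraries. It was 8951 to 9525 in DNase-treated ATEV libraries and 10264 to 11151 in PBS libraries. Nearly all of that sum was Krt7, Krt8, Krt18, Krt19, Cdh1 and Muc1, and the label rests on these. Cldn7 averaged 0.2521 to 0.9352 CPM across the groups, and Cldn4 averaged 0.3196 CPM in ATEV cells, its lowest group. Such low levels give the label little support. Of 17 T cell markers, 12 and 13 were at 0 in ATEV libraries and 9 to 13 in the others. Their summed level was at most 6.61 CPM in any library and came mostly from Lck, while Cd2, Cd5, Cd8a and Ifng were at 0 in all 8 libraries. The 12 myeloid and B cell markers summed to 155 and 168 CPM in ATEV libraries, 108 and 125 in NTEV libraries, 274 and 201 in DNase-treated ATEV libraries and 103 and 69.5 in PBS libraries, with 5 to 7 of them at 0 in each library. Nearly all of that sum was Cd14, and its part in the results below was not tested. The 10 fibroblast and endothelial markers summed to 3.15 to 11.2 CPM, with Dcn and Lum at 0 throughout. In such bulk RNA, more RNA per cell and a larger share of cells with a high level cannot be told apart. Whether the 2 libraries of each group stem from separate cultures is not stated, so the tests below rest on a spread among libraries that could be technical.

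ATEV exposure was set against PBS first, the comparison that asks whether the EVs changed this clone's RNA. All 9 genes were higher in both ATEV libraries than in both PBS libraries. H2-Q6 and H2-Q7 passed the filter on low counts only through the ATEV libraries, so they could come out in 1 direction alone. They are left out of the numbers of genes given next. The other 7 genes all had ATEV libraries wholly above PBS libraries, and 7 of 7 rose by edgeR's quasi-likelihood test at an adjusted p under 0.05. Across all genes tested, 3.52% were called higher in this comparison and 25.2% had ATEV libraries wholly above PBS libraries. The rises of these 7 ran from 3.65-fold for H2-T22 to about 100.9-fold for H2-Q4, a range that leaves out H2-Q6 and H2-Q7, which were almost undetected in PBS cells. The 9 genes together took 0.584% and 0.745% of all counts in ATEV libraries, against 0.0709% and 0.0731% in PBS libraries.

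H2-K1, a classical heavy chain, had 2000 and 2576 CPM in ATEV cells, 203 and 280 CPM in NTEV cells, 220 and 260 CPM in DNase-treated ATEV cells, and 195.5 and 190 CPM in PBS cells. H2-D1, the other classical heavy chain, had 1880 and 2292 CPM in ATEV cells, 258 and 324 CPM in NTEV cells, 275 and 309 CPM in DNase-treated ATEV cells, and 251 and 283 CPM in PBS cells. For both genes the ATEV libraries stood far above the other 6. B2m, the shared light chain, had 1520 and 1949 CPM in ATEV cells, 138.5 and 191 CPM in NTEV cells, 149 and 238 CPM in DNase-treated ATEV cells, and 198 and 216 CPM in PBS cells. Its ATEV libraries were again the highest, and its NTEV libraries lay under both PBS libraries. Against PBS, the log2 fold change in ATEV cells was 3.57 ± 0.22 (SE) for H2-K1, 2.97 ± 0.18 for H2-D1 and 3.07 ± 0.28 for B2m, or 11.9-fold, 7.82-fold and 8.38-fold. The edgeR adjusted p was 0.000622 for H2-K1, 0.000622 for H2-D1 and 0.00232 for B2m.

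The Q heavy chains showed the widest gap between ATEV cells and the rest. H2-Q4, a nonclassical heavy chain of the Q region, had 192 and 185 CPM in ATEV cells, 1.99 and 3.34 CPM in NTEV cells, 5.23 and 12.4 CPM in DNase-treated ATEV cells, and 1.48 and 2.31 CPM in PBS cells. Apart from the ATEV libraries, both DNase-treated ATEV libraries stood above the NTEV and PBS libraries, which overlapped each other. In ATEV cells against PBS cells its log2 fold change was 6.66 ± 0.53 (SE), with an edgeR adjusted p of 0.00152. H2-Q6 and H2-Q7 were close to absent outside ATEV cells. H2-Q6 had 1423 and 1811 counts in ATEV libraries, 0 and 1 in NTEV libraries, 0 and 0 in DNase-treated ATEV libraries, and 0 and 3 in PBS libraries. H2-Q7 had 320 and 472 counts in ATEV libraries, 4 and 4 counts in PBS libraries, and 0 counts in the NTEV and DNase-treated ATEV libraries. For H2-Q6 the ratio of ATEV to PBS levels was 1042 (95% interval from counting error alone, 356 to 5054). All 3 of its PBS counts were in PBS library 2, and the fitted log2 fold change ran from 8.61 without PBS library 1 to 13.69 without PBS library 2. For H2-Q7 the log2 fold change in ATEV cells against PBS cells was 6.52 ± 0.48. No p is given for H2-Q6 and H2-Q7, since the filter fixed their direction.

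The T and M heavy chains changed less than the Q chains. H2-T22, known as a ligand of some gamma delta T cells, had 157 and 137 CPM in ATEV cells, 40.03 and 43.1 CPM in NTEV cells, 38.3 and 45.2 CPM in DNase-treated ATEV cells, and 42.4 and 37.9 CPM in PBS cells. H2-T23, which encodes Qa-1, a presenter of leader peptides to NK and T cell receptors, had 105 and 148 CPM in ATEV cells, 36.6 and 68.4 CPM in NTEV cells, 31.9 and 57.3 CPM in DNase-treated ATEV cells, and 30.6 and 30.4 CPM in PBS cells. Within groups, library 2 held 1.87 times the H2-T23 level of library 1 in NTEV cells and 1.80 times in DNase-treated ATEV cells, though all of these lay above both PBS libraries. H2-M3, which presents N-formylated peptides, had 31.8 and 28.1 CPM in ATEV cells, 3.15 and 4.95 CPM in NTEV cells, 4.79 and 5.40 CPM in DNase-treated ATEV cells, and 3.59 and 3.16 CPM in PBS cells. In ATEV cells against PBS cells the log2 fold change was 1.87 ± 0.15 (SE) for H2-T22, 2.05 ± 0.38 for H2-T23 and 3.15 ± 0.26 for H2-M3. Their edgeR adjusted p was 0.00163 for H2-T22, 0.0286 for H2-T23 and 0.00182 for H2-M3. The H2-T23 call was lost without ATEV library 2, PBS library 1 or PBS library 2, at edgeR adjusted p of 0.100, 0.185 and 0.202.

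**Figure D1:**
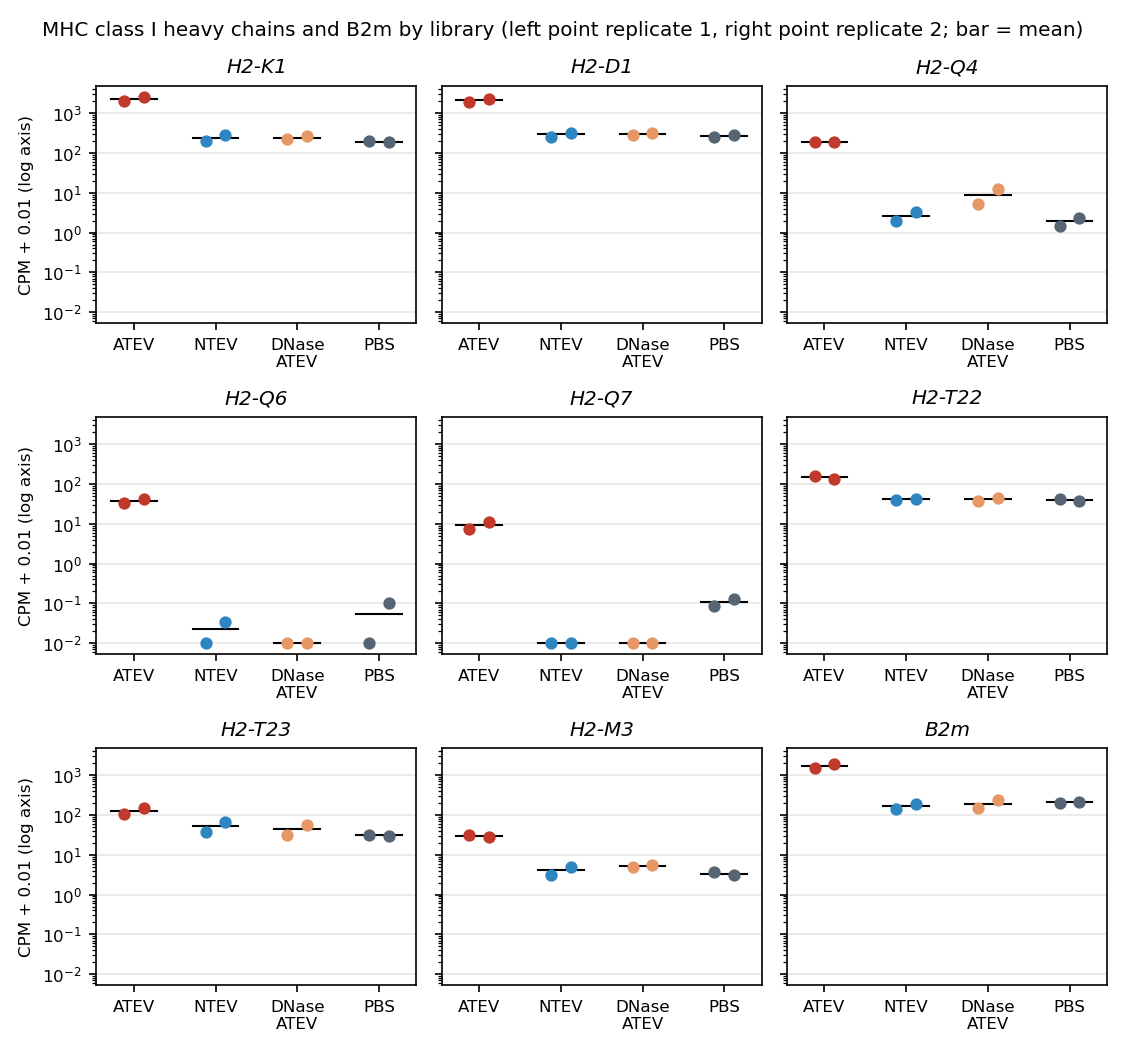
Level of each gene in each library, in CPM plus 0.01 on a log axis that is the same in every panel; the left and right points of a group are its libraries 1 and 2 and the bar is their mean. The ATEV points stand above all others in all 9 panels, and H2-Q6 and H2-Q7 lie at or near the bottom of the axis in the other 3 groups.

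Levels of different genes were compared only after division by exon length, as CPM per kb of exon. That length counts every annotated exon base of a gene and can exceed the length of a transcript. It was 2938 bases for H2-K1, 2579 for H2-D1 and 860 for B2m. Their longest coding transcripts had 1619, 2102 and 860 bases. The order of genes, the shares and the balance below rest on that choice, and transcript lengths were not tried. In ATEV cells B2m had 2017 ± 353 CPM per kb (SD, n = 2), followed by H2-D1 with 809 ± 113 and H2-K1 with 779 ± 139, the last pair not differing beyond their spread. H2-Q4 came next with 72.7 ± 2.06 CPM per kb, then H2-T23 with 43.9 ± 10.45 and H2-T22 with 43.0 ± 4.13, which overlapped, then H2-M3 with 20.8 ± 1.81 and H2-Q6 with 17.8 ± 2.92, which also overlapped, and H2-Q7 with 2.13 ± 0.57. In PBS cells the order was B2m with 241 ± 14.5 CPM per kb, H2-D1 with 103.5 ± 8.95, H2-K1 with 65.7 ± 1.22, H2-T22 with 11.8 ± 0.93, H2-T23 with 10.56 ± 0.06, H2-M3 with 2.35 ± 0.21 and H2-Q4 with 0.73 ± 0.23. H2-Q4 thus had rank 4 of 9 in ATEV cells and rank 7 in PBS cells, while the classical chains and B2m held the top places in both. Among the 7 genes with counts in every library, NTEV cells kept the PBS order except that H2-T23 led, with 18.2 ± 7.78 CPM per kb for H2-T23 and 12.2 ± 0.63 for H2-T22.

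Within the summed heavy chain RNA, taken as CPM per kb over the 8 heavy chains, H2-K1 made up 42.4% and 44.5% in ATEV libraries, 35.2% and 36.4% in NTEV libraries, 35.8% and 35.4% in DNase-treated ATEV libraries, and 35.1% and 32.5% in PBS libraries. H2-D1 made up 45.4% and 45.1% in ATEV libraries, 50.9% and 47.9% in NTEV libraries, 51.0% and 47.9% in DNase-treated ATEV libraries, and 51.2% and 55.1% in PBS libraries. H2-Q4, H2-Q6 and H2-Q7 together made up 5.70% and 4.75% in ATEV libraries, 0.390% and 0.495% in NTEV libraries, 0.963% and 1.92% in DNase-treated ATEV libraries, and 0.309% and 0.483% in PBS libraries. H2-T22 and H2-T23 together made up 5.13% and 4.63% in ATEV libraries, against 10.64% to 13.9% in the other 6 libraries. The shares of H2-K1 and of the Q chains were therefore higher, and those of H2-D1 and of the T chains lower, in both ATEV libraries than in every other library. The balance of heavy chain to light chain, given as log2 of summed heavy chains over B2m per kb, was -0.14 and -0.20 in ATEV libraries, 0.29 and 0.24 in NTEV libraries, 0.27 and -0.14 in DNase-treated ATEV libraries, and -0.28 and -0.33 in PBS libraries. ATEV cells lay between the NTEV and PBS cells in this balance, and the DNase-treated ATEV libraries spanned much of the range. Shares and balances are given as values with no test, and their size and the sign of the balance depend on the exon lengths used. An exact permutation test of 2 libraries against 2 gives no p below 0.333.

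**Figure D2:**
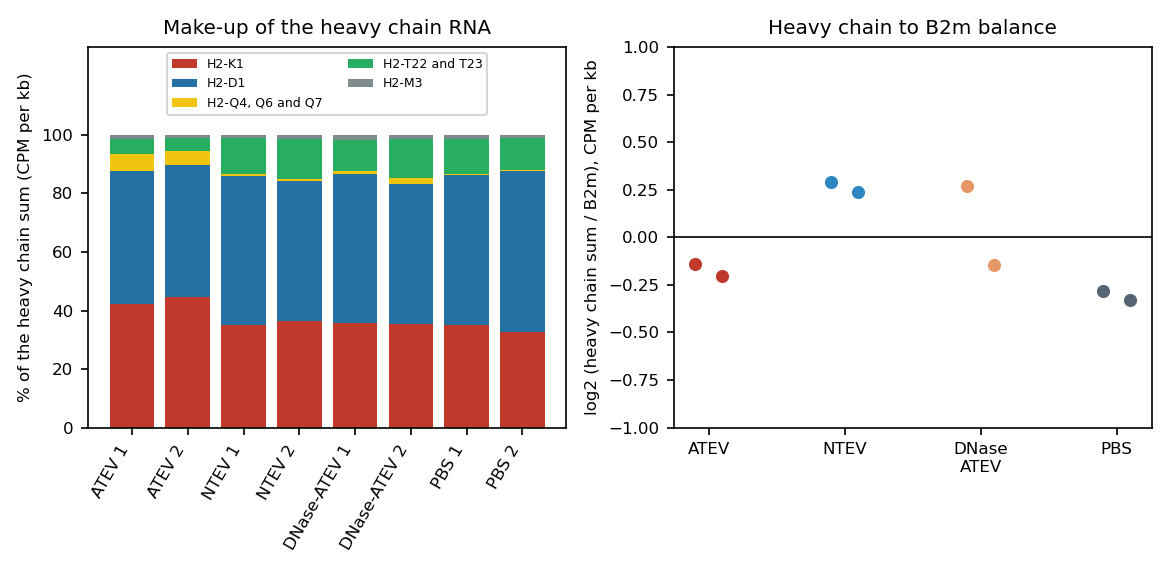
Left, the percent of summed heavy chain RNA (CPM per kb) contributed by each heavy chain or pair in each library, as stacked bars from 0; right, log2 of summed heavy chains over B2m in each library, libraries 1 and 2 from left to right. The Q chains are visible in both ATEV bars, where they reach 5.70% and 4.75%, and the balance is above 0 in both NTEV libraries and in 1 of the 2 DNase-treated ATEV libraries.

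Several of these genes resemble each other, which bears on how reads could have been divided between them. The share of 50-base words of a gene's transcript that also occur in transcripts of other genes was 44.7% for H2-T22, most of it shared with H2-T10, 34.9% for H2-Q7, 32.0% for H2-Q6, 28.8% for H2-T23, 24.3% for H2-Q4, 14.3% for H2-D1 and 8.79% for H2-K1. It was 0.576% for H2-M3 and 0% for B2m. How the deposited counts treated reads that fit several genes is not given in the sources used here, so values of single Q and T chains are uncertain in that respect. Summing the 8 heavy chains into 1 row, which is untouched by exchange of reads among them, gave a log2 fold change of 3.20 ± 0.21 (SE) in ATEV cells against PBS cells, with an edgeR adjusted p of 0.000831. By CPM per kb, H2-K1 and H2-D1 together made up 87.8% and 89.6% of the heavy chains in ATEV libraries. In PBS libraries they made up 86.2% and 87.6%. The summed fold therefore says little about single Q and T chains. H2-M3 and B2m, which share almost nothing with other genes, rose by 8.85-fold and 8.38-fold.

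The promoters of the 9 genes were read because they rose together. Each window below is part of the 300 bases around the gene's RefSeq start in GRCm38.p6, written 5′ to 3′ on the gene's own strand, with motif matches in capitals. H2-K1 and H2-Q4 show the layout that H2-D1, H2-Q6 and H2-Q7 also have, H2-T22 and H2-T23 are the genes with the smallest rises, and H2-M3 and B2m are the genes free of read sharing. Marked are the kB consensus, the core of the interferon-stimulated response element (ISRE; GAAA, any 2 bases and GAAA again), the core of the gamma-activated sequence (GAS; TTC, any 3 bases and GAA) and the Y box (ATTGG), each searched on both strands.
H2-K1, chr17:34000325-34000468 (-): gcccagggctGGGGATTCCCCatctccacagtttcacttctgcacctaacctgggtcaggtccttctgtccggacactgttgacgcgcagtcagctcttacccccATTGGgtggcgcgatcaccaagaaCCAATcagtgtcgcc
H2-Q4, chr17:35379433-35379576 (+): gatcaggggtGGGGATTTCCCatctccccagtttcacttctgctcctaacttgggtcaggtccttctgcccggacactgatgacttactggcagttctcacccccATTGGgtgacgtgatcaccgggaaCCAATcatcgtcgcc
H2-T22, chr17:36042791-36042965 (-): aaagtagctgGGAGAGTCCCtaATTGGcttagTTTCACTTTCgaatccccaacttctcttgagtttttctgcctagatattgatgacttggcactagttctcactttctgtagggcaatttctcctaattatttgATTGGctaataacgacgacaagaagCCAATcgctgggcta
H2-T23, chr17:36032739-36032835 (-): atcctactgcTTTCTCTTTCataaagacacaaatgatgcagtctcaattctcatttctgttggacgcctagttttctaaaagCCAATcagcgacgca
H2-M3, chr17:37270015-37270227 (+): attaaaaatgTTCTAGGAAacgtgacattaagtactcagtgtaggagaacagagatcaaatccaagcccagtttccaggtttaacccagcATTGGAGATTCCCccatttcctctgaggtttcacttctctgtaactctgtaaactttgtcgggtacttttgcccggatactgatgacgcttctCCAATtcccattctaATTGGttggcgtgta
B2m, chr2:122147538-122147648 (+): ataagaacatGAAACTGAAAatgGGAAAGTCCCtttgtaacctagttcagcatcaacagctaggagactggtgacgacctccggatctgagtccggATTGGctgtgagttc
The Y box was found in 9 of 9 promoters, against 37.9% of the 27025 mouse promoters searched, and it reads CCAAT where it lies on the opposite strand. The kB consensus was found in 8 of 9, against 8.18% of all promoters. H2-T23 was the one without it, and in H2-M3 it overlaps a Y box. The windows of H2-K1, H2-D1, H2-Q4, H2-Q6 and H2-Q7 are closely alike in sequence. Their matches to the Y box and the kB consensus are therefore not independent of each other. An exact ISRE core was found in 3 of 9, in H2-T22, H2-T23 and B2m, against 3.49% of all promoters. The GAS core was found only in H2-M3, against 8.47% of all promoters. The H2-K1, H2-Q4 and H2-M3 windows hold tttcacttct, unmarked, where H2-T22 has the marked TTTCACTTTC. Variants of a core were not searched for, so a promoter without a mark may still hold such an element. The promoters of H2-K1, H2-D1, H2-Q4, H2-Q6 and H2-Q7 share a run of 21 bases, acagggttcaggcaaagtctt, that no other of the 27025 promoters holds. Of 14 pathway partners with a promoter sequence, 9 had a Y box, 2 the kB consensus, 2 the ISRE core and 2 the GAS core. These matches describe the letters in the windows, and binding was not measured.

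**Figure D3:**
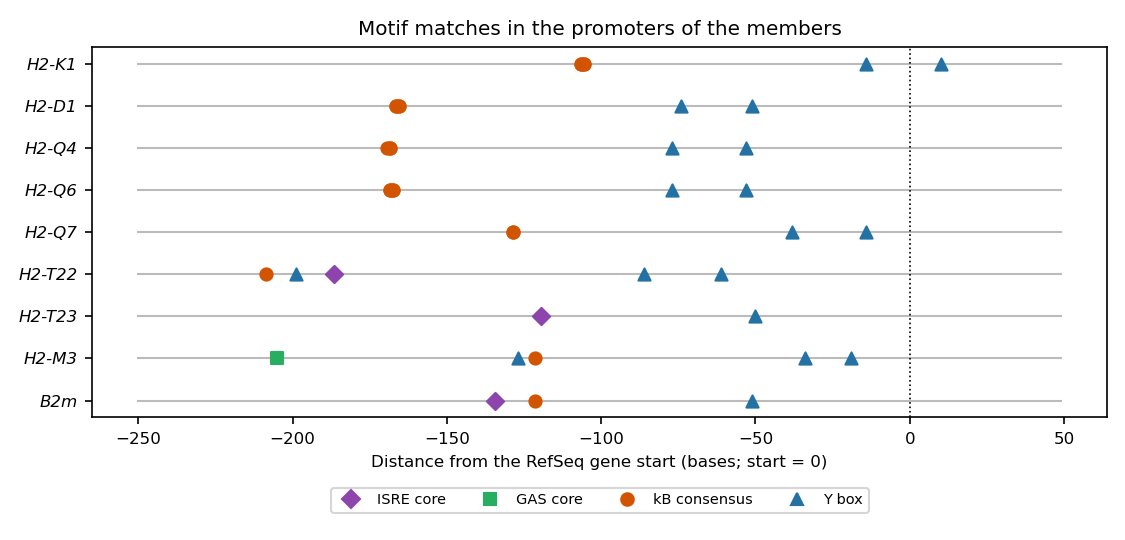
Position of each motif match, in bases from the RefSeq gene start, in the promoters of the 9 genes; marker shape and colour give the motif. All 9 lines carry a Y box, 8 carry the kB consensus, upstream of every Y box except in H2-M3, where it overlaps one, and the distance from the start differs between genes whose order of motifs is the same.

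The partners of class I presentation were read from 19 genes that cut, transport and load peptides or regulate class I transcription. In ATEV cells against PBS cells, 12 of 19 rose and 0 fell by edgeR's test, where 3.52% of all genes tested rose. The median log2 fold change was 1.73 over the list and -0.02 over all genes tested. Leaving out PBS library 1 or PBS library 2 left 6 of 19, the losses being Tapbp, Tapbpl, Psmb10, Psme1, Psme2 and Irf1. The Psme2 call was lost in 7 of 8 fits that left out a library, and the Tapbpl call in 4 of 8. Both were also lost with only the 2 groups in the fit, and Psme2 among protein-coding genes alone. Psmb8, a catalytic subunit of the immunoproteasome, had 316 and 194.5 CPM in ATEV cells and 0.0971 and 0.0912 CPM in PBS cells. Its partner subunit Psmb9 rose by 8.72 on the log2 scale and Psmb10 by 2.49. Tap1, a subunit of the peptide transporter, had 347.5 and 242 CPM in ATEV cells, against 1.15 and 0.608 CPM in PBS cells, and its log2 fold change was 8.34 ± 0.51 (SE), with an edgeR adjusted p of 0.000622. Tap2, the other subunit of the transporter, rose by 4.98, and Tapbp, or tapasin, which bridges the transporter and the heavy chain, by 2.06 ± 0.23, with an edgeR adjusted p of 0.00444. Nlrc5, the class I transactivator, had 151 and 109 CPM in ATEV cells and 0.0971 and 0.273 CPM in PBS cells, a log2 fold change of 9.55 ± 0.87. The transcription factor Irf1 rose by 3.04 on the log2 scale, and Psme1, a subunit of the proteasome activator PA28, by 1.70. The general endoplasmic reticulum chaperones Calr, Canx and Pdia3 and the RFX subunits Rfx5, Rfxap and Rfxank did not pass the test, with log2 fold changes from -0.39 for Canx to 0.84 for Rfx5, and the trimming peptidase Erap1 missed it at 1.64 and an edgeR adjusted p of 0.0554.

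NTEV exposure was set against PBS to ask whether EVs of T cells that were not activated had an effect. None of the 9 genes passed edgeR's test in either direction, where 1.11% of all genes tested did. At an unadjusted p under 0.05 there were 0 higher and 1 lower, H2-Q7, where 19.1% of all genes tested were past it in either direction, and DESeq2 called 0. The libraries of H2-K1 and H2-T23 lay wholly above PBS and those of H2-Q7 and B2m wholly below, 4 of 9, against 59.5% of all genes tested. The log2 fold change in NTEV cells against PBS cells was 0.32 for H2-K1 (95% interval -0.15 to 0.80), 0.13 for H2-D1 (-0.28 to 0.53) and -0.33 for B2m (-0.94 to 0.28). All of these intervals include 0. The log2 fold change was 0.50 for H2-Q4 (-0.58 to 1.59), 0.05 for H2-T22 (-0.30 to 0.39), 0.78 for H2-T23 (-0.08 to 1.65) and 0.26 for H2-M3 (-0.33 to 0.85). H2-Q6 had at most 3 counts in both groups and has no fold. H2-Q7 had 0 counts in NTEV cells and 8 in PBS cells over both libraries. With 3 counts over the group set in place of 0, it was 2.89-fold lower. That value leaves out the counting error of the 8 PBS counts, so it is not a lower bound. Of the 19 partners, 0 passed the test in either direction; 1 was higher and 2 were lower at an unadjusted p under 0.05. Among them Tap1 differed by 1.05 on the log2 scale, Tapbp by 0.59, Psmb8 by 1.26, Nlrc5 by 1.41 and Irf1 by 0.29.

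ATEV and NTEV cells were compared directly, although the EV amounts were 15 and 30 µg per mL. H2-Q6 and H2-Q7, whose direction the filter on low counts fixed, are left out of the next numbers. The other 7 genes were all higher in both ATEV libraries than in both NTEV libraries, where 13.7% of all genes tested were. By edgeR's test 6 of 7 rose, where 1.05% of all genes did. The log2 fold change in ATEV cells against NTEV cells was 3.24 ± 0.22 (SE) for H2-K1, 2.84 ± 0.18 for H2-D1 and 3.40 ± 0.29 for B2m, with edgeR adjusted p of 0.00128, 0.00117 and 0.00289. It was 6.15 ± 0.51 for H2-Q4, 1.82 ± 0.15 for H2-T22 and 2.89 ± 0.26 for H2-M3. H2-T23, which encodes Qa-1, was the exception, at 1.27 ± 0.37 and an edgeR adjusted p of 0.269, and it passed with DESeq2, without the filter on low counts and with a replicate block. The H2-M3 call was lost when only the 2 groups compared were in the fit, at an edgeR adjusted p of 0.0634. H2-Q6 had 3234 counts over the ATEV libraries and 1 over the NTEV libraries, and its level was 3383 times as high (95% interval from counting error alone, 607 to 133667), and H2-Q7 was at least 276-fold higher. Of the partners, 10 of 19 rose and 0 fell, among them Psmb8 by 10.09, Psmb9 by 8.08, Nlrc5 by 8.15, Tap1 by 7.29, Tap2 by 4.02, Irf1 by 2.75, Psmb10 by 2.60, Tapbp by 1.47 and Psme1 by 1.38 on the log2 scale. Without NTEV library 1 or NTEV library 2 the number was 6, and with only the 2 groups in the fit it was 3. The Tapbp and Psme1 calls were lost in 7 of 8 fits that left out a library, all but that without ATEV library 2, at edgeR adjusted p up to 0.225 and 0.278. The Psmb10 call was lost without either NTEV or either PBS library, at up to 0.179, and the Irf1 call without either NTEV library, at up to 0.1405. With only the 2 groups in the fit, Tapbp, Psme1, Psmb10, Irf1, Tap2 and Nlrc5 did not pass.

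DNase-treated ATEV cells were set against PBS to ask what remained when the ATEVs had first been incubated with DNase. How far their DNA was digested is not known from these data. None of the 9 genes passed edgeR's test, where 3.01% of all genes tested did. That share rested on both PBS libraries: 328 genes were higher and 130 lower, against 11 and 9 without PBS library 1 and 7 and 4 without PBS library 2. At an unadjusted p under 0.05 there were 2 higher, H2-Q4 and H2-M3, and 1 lower, H2-Q7, where 24.7% of all genes tested were past it in either direction. The libraries of H2-K1, H2-Q4, H2-T23 and H2-M3 lay wholly above PBS and those of H2-Q7 wholly below, 5 of 9, against 60.6% of all genes. H2-Q4 came closest, with a log2 fold change of 2.24 ± 0.46 (95% interval 1.17 to 3.31) and an edgeR adjusted p of 0.0507. It passed with DESeq2, without the filter on low counts, with a replicate block and without DNase-treated ATEV library 1, the lower of its group, at adjusted p of 1.80e-05, 2.46e-05, 0.0199 and 0.0462. Without DNase-treated ATEV library 2 its log2 fold change was 1.496. For H2-K1 the log2 fold change was 0.31 (95% interval -0.16 to 0.79), for H2-D1 0.13 (-0.27 to 0.53) and for B2m -0.10 (-0.71 to 0.51). It was 0.06 for H2-T22, 0.55 for H2-T23 and 0.59 for H2-M3, whose edgeR adjusted p was 0.202. H2-Q6 had 0 counts in the treated cells and 3 in PBS cells and has no fold. H2-Q7 was 2.58-fold lower with 3 counts set in place of 0, and the counting error of its 8 PBS counts is left out. Of the 19 partners, Psmb8 and Tap1 rose, by 2.87 and 2.43 on the log2 scale with edgeR adjusted p of 0.0284 and 0.038; no treated library held more than 5.999 CPM of either. Both calls were lost when any of the 4 libraries of the pair was left out, and among protein-coding genes alone. At an unadjusted p under 0.05, 9 of the 19 were higher and 1 was lower, and 13 had treated libraries wholly above PBS and 5 wholly below. With DESeq2, without the filter on low counts and with a replicate block, 1 partner was called lower. Nlrc5 differed by 2.42, Irf1 by 0.69 and Tapbp by 0.49, none of which passed. Cd14, which made up most of the myeloid marker sum, also rose in these cells, with a log2 fold change of 1.48 and an edgeR adjusted p of 0.0284, and its part in the class I values was not tested.

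DNase-treated ATEV cells were set against ATEV cells at the same 15 µg per mL. H2-Q6 and H2-Q7, whose direction the filter on low counts fixed, are left out of the next numbers. The other 7 genes were all lower in both treated libraries than in both ATEV libraries, where 16.8% of all genes tested were. By edgeR's test 6 of 7 fell, where 0.579% of all genes did. H2-K1 fell by 3.25 ± 0.22 (SE) on the log2 scale, H2-D1 by 2.84 ± 0.18 and B2m fell by 3.16 ± 0.28, with edgeR adjusted p of 0.0018, 0.0018 and 0.00556. H2-Q4 fell by 4.42 ± 0.47, H2-T22 fell by 1.81 ± 0.15 and H2-M3 fell by 2.56 ± 0.26. H2-Q6 was at least 1006-fold lower and H2-Q7 at least 246-fold lower, with no count in either treated library. H2-T23 was again the exception, at -1.51 ± 0.37 and an edgeR adjusted p of 0.195, and it passed with DESeq2, without the filter on low counts and with a replicate block. The H2-M3 call was lost without DNase-treated ATEV library 1 or 2, at edgeR adjusted p of 0.122 and 0.0858. Taking the mean ATEV level as 100%, H2-K1 stood at 10.49% in DNase-treated ATEV cells, 10.56% in NTEV cells and 8.43% in PBS cells, and B2m at 11.2% in DNase-treated ATEV cells, 9.50% in NTEV cells and 11.9% in PBS cells. H2-Q4 stood at 4.68% in DNase-treated ATEV cells, 1.41% in NTEV cells and 1.00% in PBS cells. H2-T23 kept the largest share of its ATEV level, with 35.2% in DNase-treated ATEV cells, 41.5% in NTEV cells and 24.1% in PBS cells, except that H2-T22 kept more in PBS cells, 27.4%. Of the partners, 8 of 19 fell and 0 rose. Among them Psmb8 fell by 8.48, Nlrc5 fell by 7.13, Psmb9 fell by 6.73, Tap1 fell by 5.91, Tap2 fell by 3.97, Irf1 fell by 2.34 and Tapbp fell by 1.57 on the log2 scale. Without DNase-treated ATEV library 1 or 2 the number was 3, and the Nlrc5 and Tap2 calls were among those lost, at edgeR adjusted p up to 0.0999 and 0.164. The Irf1 call was lost in 7 of 8 fits that left out a library, all but that without ATEV library 2, at up to 0.2845. The Tapbp call was lost in 5 of 8, those without ATEV library 1 or without either DNase-treated ATEV or either PBS library, at up to 0.240. Both were also lost with only the 2 groups in the fit, at 0.143.

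DNase-treated ATEV and NTEV cells were the pair with the fewest calls over all genes tested, 7 higher and 1 lower. For H2-Q4, Psmb8 and Tap1 the NTEV and PBS cells lay closer to each other than this pair did. None of the 9 genes passed edgeR's test, where 0.0526% of all genes did, and 1 of 9, H2-Q4, had groups that did not overlap, against 38.6% of all genes. The log2 fold change in DNase-treated ATEV cells against NTEV cells was -0.01 for H2-K1 (95% interval -0.48 to 0.46), 0.00 for H2-D1 (-0.40 to 0.41), 0.01 for H2-T22 (-0.34 to 0.35) and 0.23 for B2m (-0.38 to 0.84). It was -0.24 for H2-T23, 0.33 for H2-M3 and 1.74 for H2-Q4 (0.70 to 2.77), with an edgeR adjusted p of 0.38 for H2-Q4, the one gene at an unadjusted p under 0.05, where 10% of all genes tested were. DESeq2 called H2-Q4, at an adjusted p of 0.00805. H2-Q6 and H2-Q7 had at most 1 count in both groups and have no fold. Of the 19 partners 0 passed; 4 were higher and 0 were lower at an unadjusted p under 0.05. The log2 difference was 1.61 for Psmb8, 1.38 for Tap1, 1.01 for Nlrc5, 0.41 for Irf1 and -0.10 for Tapbp.

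**Figure D4:**
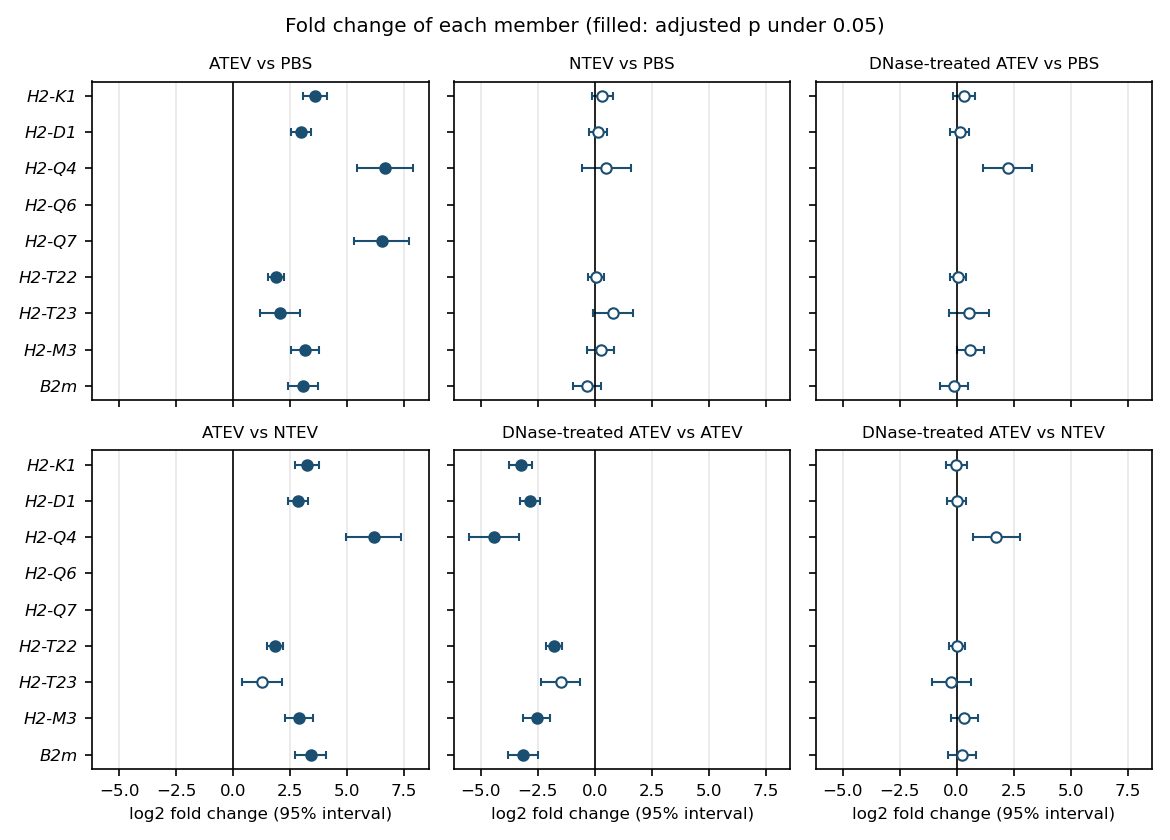
The log2 fold change of each gene in the 6 comparisons, with 95% intervals; filled points have an edgeR adjusted p under 0.05. H2-Q6 and H2-Q7 are left blank where a group had 3 counts or fewer in all, and the 3 panels with ATEV cells hold the filled points. The H2-Q7 point in ATEV against PBS is among the filled ones, although the filter on low counts fixed its direction. Among the 7 genes shown in every panel H2-Q4 is farthest from 0 in each panel but that of NTEV against PBS.

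Between the 2 ATEV libraries, most of these genes were higher in library 2, while nearly all of their partners were lower. H2-Q4, H2-T22 and H2-M3 were lower in library 2, as the partners were. H2-K1, H2-D1, H2-Q6, H2-Q7, H2-T23 and B2m, 6 of 9, were higher in ATEV library 2 than in library 1, by up to 1.46-fold for H2-Q7. Of the partners, 18 of 19 were lower in library 2. Irf1 had 392.5 and 192 CPM in ATEV libraries 1 and 2, and Psmb10 had 245 and 103.5 CPM. Rfxank was the partner that was not lower. In the NTEV and DNase-treated ATEV groups library 2 was the higher for every class I gene with a count, 8 of 8 and 7 of 7, and in PBS cells for 5 of 9. These differences lie within groups and were not tested, and the share of all genes higher in library 2 is not given. Across all genes, same-numbered libraries of the EV groups deviated together, with correlations of 0.485 to 0.552. The numbers above are therefore not shown to be particular to class I genes.

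**Figure D5:**
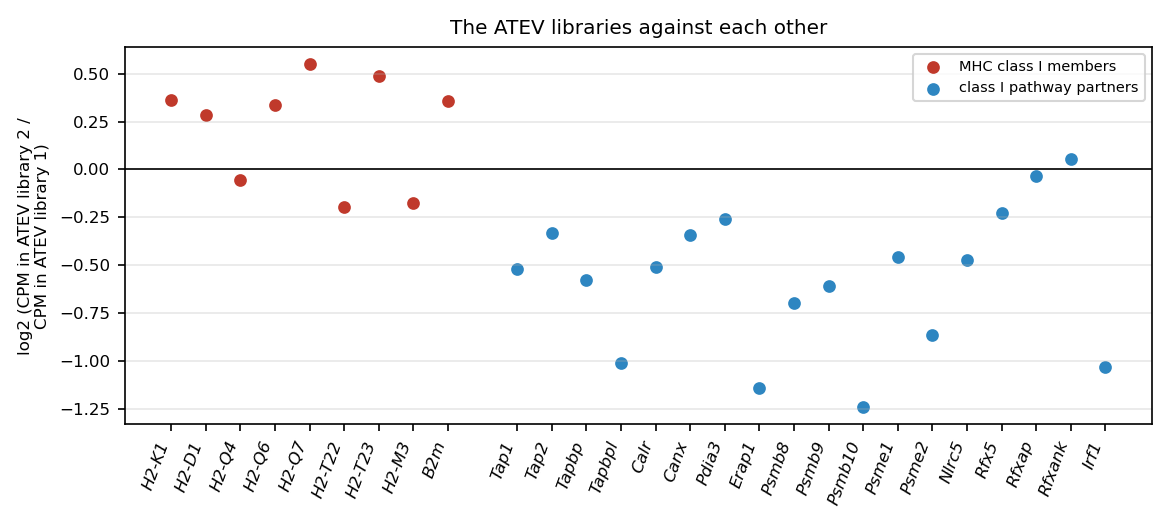
Log2 ratio of the level in ATEV library 2 to that in ATEV library 1 for the 9 class I genes and the 18 partners drawn. The 6 class I genes above 0 include H2-K1, H2-D1 and B2m, and 17 of the 18 partners drawn lie below 0.

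The profile shared by H2-K1, H2-D1 and B2m was used to rank other genes by likeness, as the root mean square difference of centred log2 CPM over the 8 libraries. Among the 9 genes, H2-M3 lay closest to it at 0.27, followed by H2-T22 at 0.60, H2-T23 at 0.72, H2-Q4 at 1.39, H2-Q7 at 1.83 and H2-Q6 at 2.70. Of 10569 protein-coding genes compared, the 10 most alike included Phf11d at 0.41, Spats2l at 0.43, Irf1 at 0.49, Ube2l6 at 0.49, Mt3 at 0.50, Irgm1 at 0.51, Acta2 at 0.56, Pltp at 0.56 and Ly6a at 0.58. Phf11d, the most alike, averaged 29.9 CPM in ATEV cells, 5.48 in NTEV cells, 5.55 in DNase-treated ATEV cells and 6.04 in PBS cells. Acta2, a smooth muscle actin, averaged 39.1 CPM in ATEV cells, 3.05 in NTEV cells, 4.21 in DNase-treated ATEV cells and 5.58 in PBS cells. Only H2-M3 among the other class I genes was nearer to the profile than Phf11d, and the ranking describes 8 libraries of 4 groups.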

How the data were processed

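Raw counts per gene were read for 8 libraries in 4 groups from the count table deposited by the authors; it held 42687 Ensembl identifiers, none of the mitochondrial genome, and no column was left out. Per the labels' protocols, total RNA went into a TruSeq stranded mRNA preparation. TopHat2 2.0.11, Cufflinks 2.1.1, bcl2fastq 2.19 and the build mm9 are named in the submitters' processing notes; which tool counted, with which annotation, and how reads that fit several genes were treated is not stated there. Symbols, exon lengths and transcripts came from GENCODE M21, which gave a symbol to 42250 identifiers, and promoter sequences from RefSeq on GRCm38.p6, where all 9 genes had an entry. Since these builds differ from the one named, no coordinates of counted features are given.

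Genes were kept by filterByExpr with the groups given (15197 genes), scaled by TMM and fitted over all 8 libraries with a mean per group in edgeR 4.0.16 (R 4.3.3). The quasi-likelihood F test was two-sided, with Benjamini-Hochberg adjustment over all genes tested and a threshold of 0.05. The standard error is the log2 fold change over the root of F, and intervals are 95%. CPM uses TMM-scaled library sizes. Where a group had 3 counts or fewer over its libraries, a ratio of counts with an exact interval or a bound is given in place of the fitted fold. Intervals from counts cover counting error only. Values with a floor set 3 counts over the group in place of 0 and take the other group's counts without error. The test was tried on simulated counts. Alternatives were DESeq2 1.42.0, RLE scaling, no filter, only the groups compared, a replicate block, protein-coding genes alone, summed heavy chains and each library left out; those for the partners were added after seeing the data.

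All 9 genes, the 19 partners, 33 other class I or class I-like genes and the marker lists were chosen with earlier results of these data known. Named were all 9 genes, a fixed set of partners and up to 4 further partners with the smallest p among those called, the 8 other class I-like genes of highest mean level, and the 10 genes of most similar profile with a mean log2 CPM of at least 1. A partner and an allele of the cell model are not reported here by name.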

Additional observations from a re-analysis of the deposited data

How the results depend on the processing

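Fold changes of the 9 class I genes, 1 per gene, comparison and alternative, kept their direction and side of the threshold in 652 of 698 cases. These include H2-Q6 and H2-Q7, whose direction the filter on low counts fixed in the comparisons with ATEV cells. In ATEV against PBS cells, 7 to 9 genes rose when a library was left out, a number that counts H2-Q6 and H2-Q7 too. The number higher in DNase-treated ATEV against PBS cells became 1, H2-Q4, with DESeq2, without the filter on low counts and with a replicate block, and 0 to 1 when a library was left out. The number lower became 1, H2-Q7, without the filter, in DNase-treated ATEV and in NTEV cells against PBS cells. In DNase-treated ATEV against NTEV cells, 1 gene, H2-Q4, was higher with DESeq2 or without the filter. With H2-K1 and H2-D1 alone as heavy chains, the log2 balance to B2m averaged -0.34 in ATEV, 0.032 in NTEV and -0.51 in PBS cells. Values near 0 changed sign in DNase-treated ATEV against NTEV cells. H2-K1 was at 0.004691 among protein-coding genes. H2-D1 was at -0.007517 with DESeq2, -0.0002011 with RLE scaling and -0.004768 without the filter. H2-T22 was at -0.002419 with DESeq2 and -0.0008089 without the filter, and all class I rows summed were at 0.0006726.

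Leaving out a library moved these across 0: in NTEV against PBS cells H2-D1 (-0.048 to 0.32), H2-T22 (-0.032 to 0.14), H2-M3 (-0.10 to 0.59) and Nlrc5 (-0.31 to 2.30); in DNase-treated ATEV against PBS cells H2-T22 (-0.059 to 0.21) and B2m (-0.46 to 0.24); in DNase-treated ATEV against NTEV cells H2-K1 (-0.24 to 0.23), H2-D1 (-0.17 to 0.17), H2-T22 (-0.13 to 0.14), H2-T23 (-0.74 to 0.28), B2m (-0.16 to 0.54) and Tapbp (-0.32 to 0.12); in ATEV against PBS cells Fcgrt (-0.35 to 2.102). The cause was not tested.

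Replicate numbers were not stated to pair libraries, and same-numbered libraries deviated together among the EV groups (correlation across genes 0.485 to 0.552) and oppositely with PBS (-0.24 to -0.14). With the replicate block, H2-T23 passed in ATEV against NTEV cells at 1.31 and an edgeR adjusted p of 0.0487. All-gene counts moved most: 535 genes were higher in ATEV against PBS cells in the fit reported, 951 with DESeq2, 114 without PBS library 1 and 104 without PBS library 2. The partners higher in DNase-treated ATEV against PBS cells numbered 7 without the filter. Depth limits H2-Q6 and H2-Q7 outside ATEV cells, where no library had more than 4 counts.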

Other observations

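Of 33 other class I and class I-like genes in the table, 8 were at 0 counts in all 8 libraries and 12 could be tested. H2-T10, H2-T-ps, H2-Q5 and Gm19684 entered the test only through the ATEV libraries, so a rise there was the only call they could give, and their p is not given. H2-T10, a close relative of H2-T22, had 12.1 and 10.47 CPM in ATEV cells, 0.137 and 0.0249 CPM in NTEV cells, 0.218 and 0.523 CPM in DNase-treated ATEV cells, and 0.155 and 0.152 CPM in PBS cells. Over both libraries that was 986 counts in ATEV cells, 8 in NTEV cells, 30 in DNase-treated ATEV cells and 13 in PBS cells. Its log2 fold change in ATEV cells was 6.17 against PBS cells and 6.99 against NTEV cells, while H2-T22, with which it shares much transcript sequence, rose by 1.87 against PBS cells. The class I-like genes outside the MHC with the highest levels did not pass in ATEV against PBS cells: Procr, the endothelial protein C receptor, had 58.5 and 58.3 CPM in ATEV cells and 70.7 and 76.4 CPM in PBS cells, and Hfe, which regulates iron uptake, had 11.04 and 12.05 CPM in ATEV cells and 9.73 and 8.88 CPM in PBS cells. Azgp1, Fcgrt, H2-K2, Mr1 and Cd1d1 had log2 fold changes of 1.61, 1.21, 1.45, 1.86 and 1.35 there, and none passed. H2-K2 passed with a replicate block and without the filter on low counts, at edgeR adjusted p of 0.0338 and 0.0365, and Azgp1 and Mr1 passed without the filter, at 0.0159 and 0.0345.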
